A study of Homo sapiens with 10 samples.

Results

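The genes described here build and run the DNA replication machinery, from the marking of origins to the work of the fork, and were followed in MCF10A, a human breast epithelial line that is immortal but does not form tumours. A list of 54 genes was drawn up by known role, with earlier results of these data known. A gene was followed where the platform annotation named a probe set for it, which held for 25 of the 54. The data were 10 expression arrays, 5 of parental cells (H2A.X WT) and 5 of cells with the H2A.X gene knocked out. H2A.X is the histone variant that is phosphorylated around DNA double-strand breaks. Both groups grew in DMEM/F12 with horse serum, hydrocortisone, EGF, cholera toxin, insulin and penicillin-streptomycin, and were harvested after 48 h. Whether the knockout cells were 1 clone or several, and whether the arrays came from separate cultures, is not stated in the labels, so the p-values take in no more than the spread among these arrays, part or all of which may be technical. H2AX itself was not analysed here, so the knockout is taken from the labels alone.

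Replication begins at origins, where the origin recognition complex, CDC6 and CDT1 load the ring-shaped MCM helicase onto DNA before S phase. The kinase of CDC7 and DBF4, with MCM10, CDC45 and the GINS complex, then turns the loaded ring into a moving helicase, and the polymerases follow it, held to DNA by the sliding clamp PCNA. Many of these genes are transcribed as cells enter S phase under E2F transcription factors, so their transcripts are widely used as signs of cycling cells.

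Most of the measured replication genes were higher in knockout cells. Of the 25, 22 rose (limma, adjusted p under 0.05), against 15.3% of all 14884 genes tested, TIPIN fell, against 19.0% of all genes, and CDC6 and DBF4 did not pass. In either direction 34.3% of all genes passed. There were 12 members that rose at least 2-fold, a log2 difference of 1 or more, against 1.31% of all genes, and in 21 members the lowest knockout array was above the highest parental array, against 12.2% of all genes. The median difference, knockout minus parental, was 0.96 on the log2 scale, beside a median of 0.00 over all genes. Because the list was chosen with earlier results of these data known, these shares are a description and not a test. The largest rises were those of GINS2 (3.27-fold) and MCM10 (3.05-fold), which both act in turning the loaded helicase into a moving one.

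**Figure D1:**
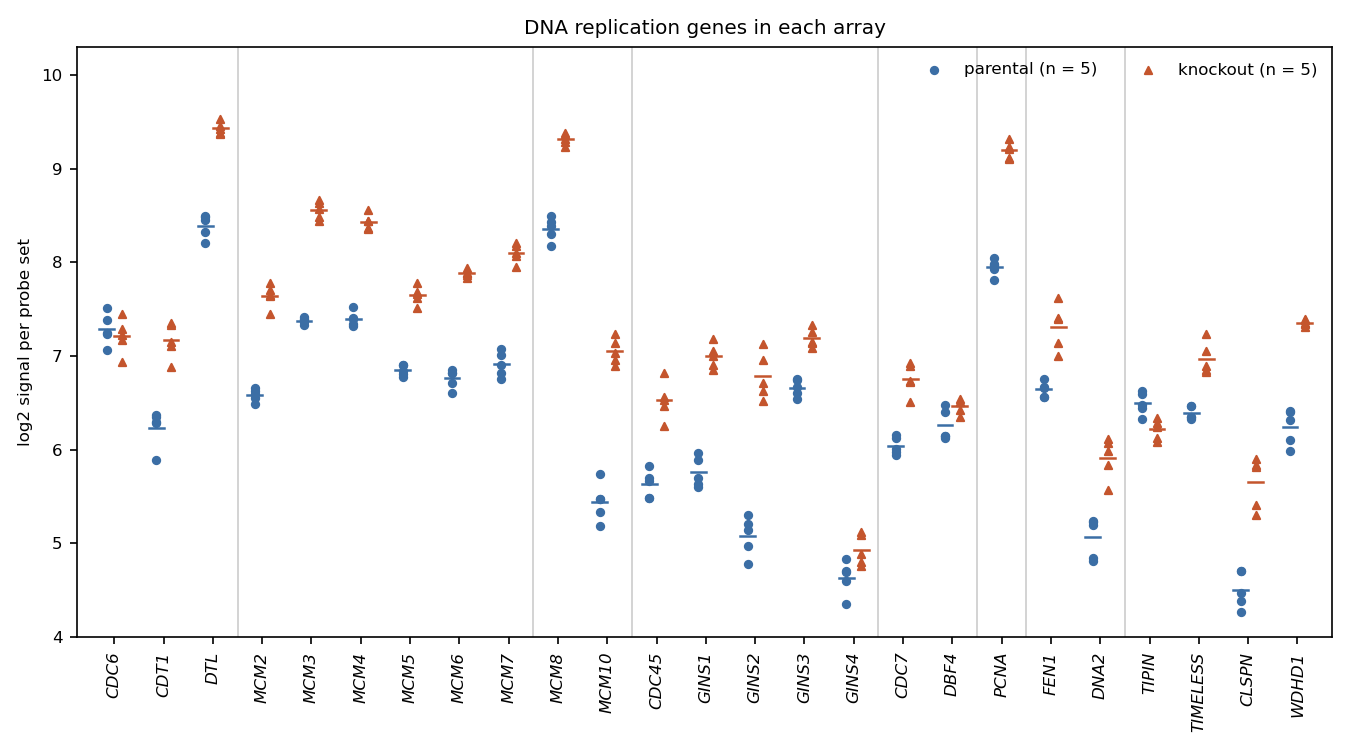
Log2 signal per probe set (vertical axis) of the 25 measured replication genes (horizontal axis, grouped by role) in 5 parental arrays (circles) and 5 knockout arrays (triangles), with short lines at the group means. Knockout arrays lie above parental arrays without overlap in 21 genes, while CDC6, DBF4, GINS4 and TIPIN overlap.

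The list was not evenly covered. The 29 members not analysed here were the 6 origin recognition genes ORC1 to ORC6, GMNN, the primase and polymerase alpha genes POLA1, POLA2, PRIM1 and PRIM2, POLD1 to POLD4, POLE and POLE2 to POLE4, the clamp loader genes RFC1 to RFC5, LIG1, RNASEH2A and RPA1 to RPA3. The comparison of complexes therefore covered licensing factors, the helicase, its activators, the clamp, lagging strand nucleases and fork protection, and no polymerase subunit. Array medians lay between 4.26 and 4.35 (log2). Correlations between arrays across genes were 0.991 to 0.996 within groups and 0.975 to 0.979 between groups, and on the second principal component knockout replicate 1 was at 20.2, with the remaining knockout arrays at -9.47 to -2.52. Without that array 22 members rose, 1 fell and 13 rose at least 2-fold. The breast epithelial markers KRT5, KRT14, EGFR, EPCAM and KRT18 had signal in both groups, while KRT17, KRT6A, TP63, ITGB4 and LAMB3 were not analysed here.

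The licensing group held the loading factors CDT1 and CDC6 and also DTL, which acts against CDT1. In this group CDT1 and DTL rose and CDC6 did not pass. CDT1, which brings the helicase to origins, was at 6.30, 6.28, 6.37, 6.35 and 5.89 in parental replicates 1 to 5 and 6.89, 7.11, 7.33, 7.36 and 7.16 in knockout replicates 1 to 5. The groups did not overlap, and parental replicate 5 lay below the other parental arrays. The CDT1 difference was 0.93 ± 0.11 (SE) on the log2 scale (adjusted p = 1.62e-05). DTL, the substrate receptor of the ubiquitin ligase that marks CDT1 for destruction in S phase, was at 8.21, 8.32, 8.45, 8.50 and 8.49 in the parental arrays and 9.39, 9.46, 9.53, 9.42 and 9.37 in the knockout arrays. It rose by 1.04 ± 0.07 (SE) (adjusted p = 8.83e-08) with no overlap, and its knockout arrays were closer together than those of CDT1.

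CDC6, the ATPase that loads the helicase together with CDT1, went apart from the rest. Its values were 7.25, 7.24, 7.51, 7.39 and 7.07 in the parental arrays and 7.29, 7.22, 7.45, 7.17 and 6.94 in the knockout arrays. The groups overlapped over most of their range, and the difference was -0.07 ± 0.10 (SE) (adjusted p = 0.642). Within each array, the change of CDT1 relative to CDC6 was taken with the parental mean set to 0. It ran from -0.12 to 0.10 in parental cells and from 0.65 to 1.27 in knockout cells. The 2 loading factors thus changed unequally in all 5 knockout arrays. This pair and the other partner pairs below were chosen after values were seen, so their separation follows in part from that choice.

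All 6 subunits of the MCM helicase rose, and by similar amounts. MCM7 rose from 6.91 ± 0.13 to 8.10 ± 0.10 (SD, n = 5 each), with array values of 7.08, 6.76, 7.02, 6.90 and 6.81 in the parental arrays and 7.95, 8.18, 8.07, 8.20 and 8.10 in the knockout arrays. MCM3 was at 7.34, 7.41, 7.39, 7.39 and 7.36 in the parental arrays and 8.48, 8.57, 8.63, 8.67 and 8.45 in the knockout arrays. In both genes the lowest knockout array was above the highest parental array. The differences were 1.19 ± 0.07 (SE) for MCM7 (adjusted p = 7.28e-08) and 1.18 ± 0.06 (SE) for MCM3 (adjusted p = 7.36e-09). MCM6 rose by 1.12, MCM2 by 1.06, MCM4 by 1.03 and MCM5 by 0.80, each with no overlap between groups. These 6 proteins form a ring with 1 copy of each. The differences of their genes ran from 0.80 to 1.19 (median 1.09), a narrower spread than that of the helicase activators, 0.30 to 1.71 (median 0.89). The lowest activator was GINS4, which was dimmer than the median gene, while all 6 ring genes were brighter than it. Next lowest was GINS3, at 0.53. Between the extremes of the ring, the change of MCM7 relative to MCM5 within an array ran from 0.22 to 0.52 in knockout cells and from -0.22 to 0.11 in parental cells.

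The listed genes MCM10 and MCM8, which carry the MCM name but are not part of the ring, also rose. MCM10, which binds the loaded ring and is needed for it to start moving, was at 5.47, 5.34, 5.74, 5.48 and 5.19 in the parental arrays and 6.90, 7.14, 7.24, 7.03 and 6.96 in the knockout arrays. Every knockout array was above every parental array by more than 1 on the log2 scale, and the difference was 1.61 ± 0.10 (SE) (adjusted p = 6.16e-08). MCM8, a paralog that acts with MCM9 in recombination, was at 8.18, 8.43, 8.39, 8.50 and 8.30 in the parental arrays and 9.36, 9.32, 9.39, 9.28 and 9.24 in the knockout arrays. It rose by 0.96 ± 0.07 (SE) (adjusted p = 1.86e-07). MCM9 itself, which was not a member, had a difference of -0.02 (adjusted p = 0.83).

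**Figure D2:**
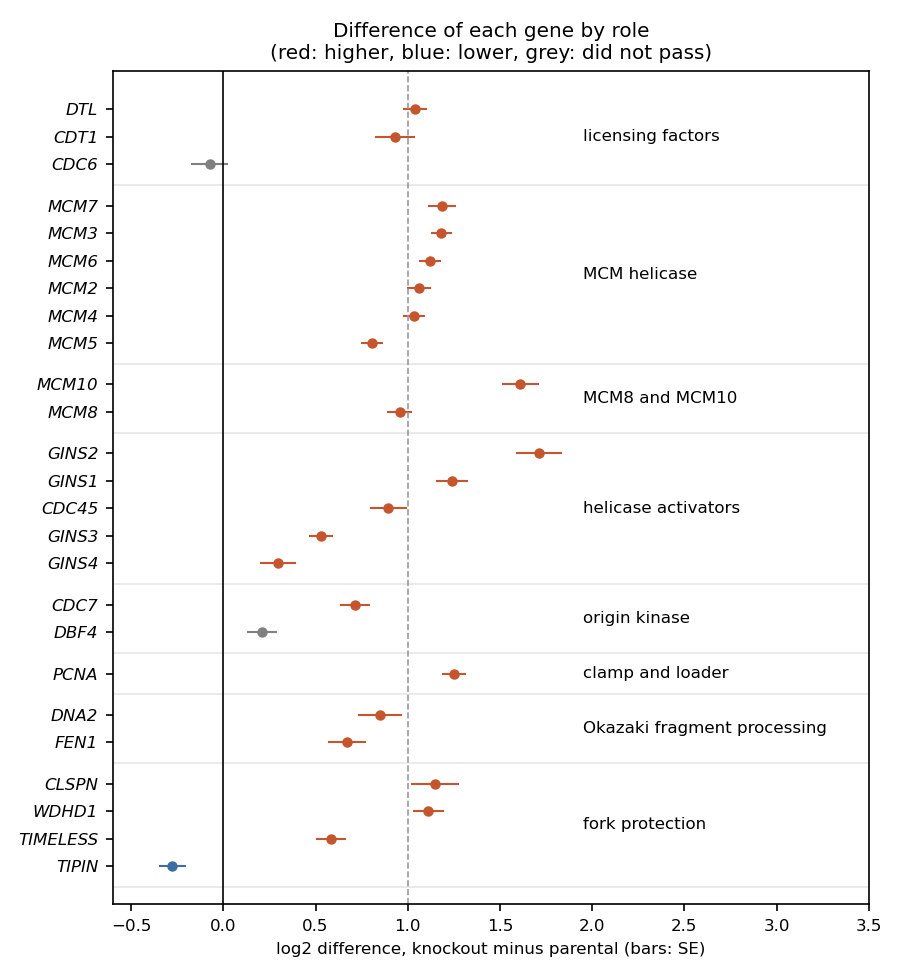
Log2 difference, knockout minus parental, of each of the 25 genes (horizontal axis, points, with bars for the standard error), ordered by role and by size, with red for a gene that rose, blue for a gene that fell and grey for a gene that did not pass. The MCM subunits cluster between 0.80 and 1.19, the activators spread from 0.30 to 1.71, and TIPIN is the only gene that fell (dashed line at 1, a 2-fold rise).

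The helicase activators all rose, but unequally. GINS2, a subunit of the GINS complex that locks onto the helicase with CDC45, rose from 5.08 ± 0.21 to 6.79 ± 0.25 (SD, n = 5 each). Its array values were 4.78, 5.30, 5.21, 4.97 and 5.14 in the parental arrays and 6.53, 6.62, 7.13, 6.96 and 6.72 in the knockout arrays. The difference was 1.71 ± 0.12 (SE), the largest of the 25 (adjusted p = 2.67e-07). GINS1 was at 5.61, 5.89, 5.96, 5.70 and 5.63 in the parental arrays and 6.85, 7.05, 7.18, 7.0 and 6.91 in the knockout arrays, also with no overlap, and rose by 1.24 ± 0.09 (SE) (adjusted p = 1.82e-07). CDC45 rose by 0.89 ± 0.10 (SE) and GINS3 by 0.53 ± 0.07 (SE).

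GINS4 showed a smaller difference that rested on single arrays. It was at 4.59, 4.83, 4.71, 4.69 and 4.35 in the parental arrays and 4.80, 5.09, 5.13, 4.76 and 4.88 in the knockout arrays. The groups overlapped, and its difference of 0.30 ± 0.10 (SE) passed narrowly (adjusted p = 0.0332). It no longer passed when parental replicate 1 (adjusted p = 0.0669) or 5 (0.077), or knockout replicate 2 (0.0816) or 3 (0.0821), was left out, nor under quantile normalisation (0.0649) or centring of the arrays (0.0652). A second, dimmer probe set of GINS4 gave -0.03 ± 0.13 (SE), and the mean of both gave 0.13 (adjusted p = 0.101). The 4 GINS proteins form a complex with 1 copy of each. GINS2 and GINS4, which had the largest and smallest differences of the 4, were paired after values were seen. Within an array the change of GINS2 relative to GINS4 ran from 1.09 to 1.75 in knockout cells against -0.26 to 0.35 in parental cells. That of GINS1 relative to GINS3 ran from 0.49 to 0.86 against -0.21 to 0.32. The mean GINS4 signal was below that of the median gene (5.49) in parental and knockout cells alike.

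The kinase that fires origins showed the same split between partners. CDC7, its catalytic subunit, was at 5.95, 6.16, 5.97, 6.13 and 6.01 in the parental arrays and 6.73, 6.72, 6.92, 6.90 and 6.52 in the knockout arrays. The groups did not overlap and the difference was 0.72 ± 0.08 (SE) (adjusted p = 1.39e-05). DBF4, the regulatory subunit that switches CDC7 on, was at 6.14, 6.40, 6.13, 6.48 and 6.15 in the parental arrays and 6.55, 6.51, 6.51, 6.43 and 6.35 in the knockout arrays. These groups overlapped and the difference of 0.21 ± 0.08 (SE) did not pass (adjusted p = 0.0627), although it passed when parental replicate 2 (0.0426) or 4 (0.0166), knockout replicate 5 (0.0483) or all dim genes (0.0271) were left out. Within an array, the change of CDC7 relative to DBF4 ran from 0.38 to 0.69 in knockout cells and from -0.13 to 0.08 in parental cells.

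**Figure D3:**
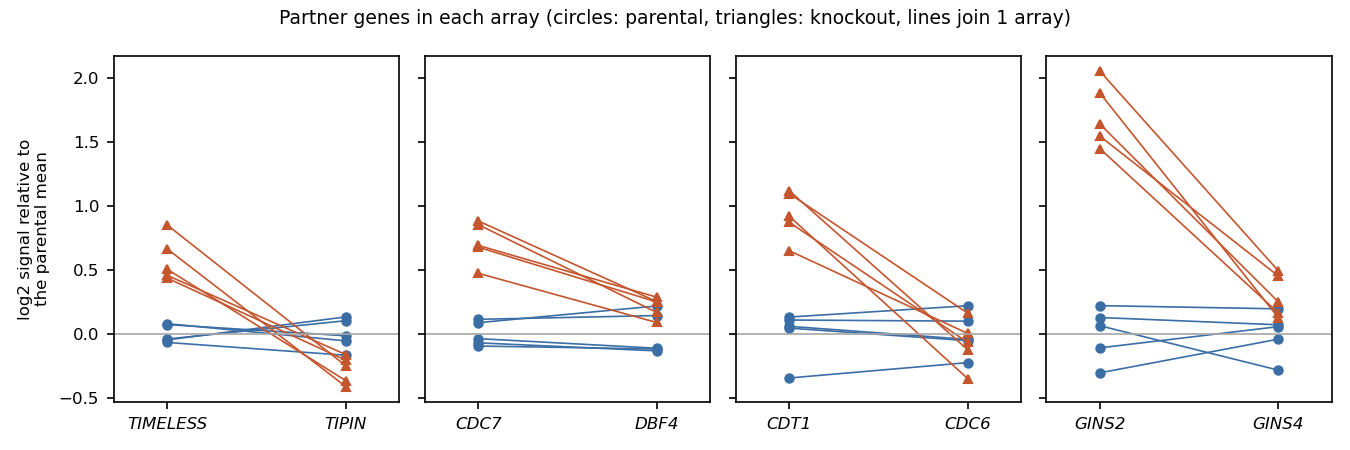
Log2 signal of 4 pairs of partner genes relative to each gene's parental mean (vertical axis), with 1 line per array joining the pair, circles for 5 parental arrays and triangles for 5 knockout arrays. In every knockout array the first gene of each pair (TIMELESS, CDC7, CDT1, GINS2) lies above its partner (TIPIN, DBF4, CDC6, GINS4), by 0.38 at the least. The pairs were chosen after values were seen, so this separation follows in part from that choice.

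At the fork itself, the clamp and both measured nucleases rose. PCNA, the ring that holds polymerases on DNA and the meeting point for many repair factors, was at 7.97, 7.98, 7.93, 7.81 and 8.04 in the parental arrays and 9.21, 9.23, 9.32, 9.11 and 9.12 in the knockout arrays. The groups stood more than 1 apart on the log2 scale, and the difference was 1.25 ± 0.06 (SE), or 2.38-fold (adjusted p = 1.01e-08). DNA2, a nuclease and helicase that trims long flaps, was at 4.81, 5.19, 4.85, 5.24 and 5.23 in the parental arrays and 5.57, 5.83, 6.07, 5.98 and 6.12 in the knockout arrays, and rose by 0.85 ± 0.12 (SE) (adjusted p = 8.8e-05). FEN1, which cuts the short flaps between Okazaki fragments, was at 6.66, 6.57, 6.57, 6.76 and 6.67 in the parental arrays and 7.14, 7.41, 7.62, 7.40 and 7.0 in the knockout arrays. Its difference was 0.67 ± 0.10 (SE) (adjusted p = 0.000182), with no overlap in either nuclease gene, and the knockout arrays of FEN1 spread more widely than the parental ones.

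Of the 4 fork protection genes, 3 rose and TIPIN fell. CLSPN, which carries the checkpoint signal from a stalled fork, was at 4.71, 4.39, 4.47, 4.71 and 4.27 in the parental arrays and 5.41, 5.91, 5.84, 5.81 and 5.30 in the knockout arrays. It rose by 1.15 ± 0.13 (SE) (adjusted p = 1.34e-05), while a second, dimmer CLSPN probe set gave 0.15 ± 0.14 (SE) and the mean of both gave 0.65. WDHD1, which links the helicase to polymerase alpha, was at 5.99, 6.10, 6.42, 6.41 and 6.32 in the parental arrays and 7.31, 7.40, 7.39, 7.35 and 7.35 in the knockout arrays. It rose by 1.11 ± 0.08 (SE) (adjusted p = 3.47e-07), and its 5 knockout values lay within 0.09 of each other.

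TIMELESS and TIPIN encode 2 proteins that travel with the fork as a dimer, and their transcripts moved in opposite directions. TIMELESS was at 6.35, 6.47, 6.47, 6.35 and 6.33 in the parental arrays and 6.83, 6.85, 7.06, 7.24 and 6.90 in the knockout arrays. It rose by 0.58 ± 0.08 (SE) (adjusted p = 7.81e-05) with no overlap. TIPIN was at 6.60, 6.48, 6.44, 6.63 and 6.33 in the parental arrays and 6.29, 6.33, 6.08, 6.25 and 6.13 in the knockout arrays. It fell by 0.28 ± 0.07 (SE, adjusted p = 0.00913), with parental replicate 5 and knockout replicate 2 meeting at the edges of the groups. The change of TIMELESS relative to TIPIN within an array ran from 0.62 to 1.10 in knockout cells and from -0.18 to 0.13 in parental cells. TIPIN fell under all 16 alternative settings run.

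The promoters of the largest rises, of the 2 loading and fork genes that went apart from the rest, and of MCM6 are shown with their E2F words and CCAAT boxes. MCM6 was added after its letters were seen. The stretches of GINS2, PCNA and MCM6 hold an E2F word, and those of MCM10, CDC6 and TIPIN do not. CDC6 and TIPIN do hold an E2F word outside the printed stretch, as given below. The sequences are from RefSeq (GRCh38.p14), which lists a window of 250 bases before to 50 after the start for 21 of the 25 members. The others are MCM4, MCM5, DNA2 and GINS4. The 250 bases before the start (the first start listed, where a gene has several) are printed 5′ to 3′ on the gene's own strand, with capitals for an E2F word, which is TTTCCCGC, TTTGGCGC, TTTCGCGC or TTTGCCGC on either strand, and for CCAAT on either strand, the core of the box bound by NF-Y. They lie at chr16:85688955-85689204 (minus strand) for GINS2, chr10:13161308-13161557 (plus strand) for MCM10, chr20:5126623-5126872 (minus strand) for PCNA, chr2:135876444-135876693 (minus strand) for MCM6, chr17:40287629-40287878 (plus strand) for CDC6 and chr15:66386718-66386967 (minus strand) for TIPIN.
GINS2: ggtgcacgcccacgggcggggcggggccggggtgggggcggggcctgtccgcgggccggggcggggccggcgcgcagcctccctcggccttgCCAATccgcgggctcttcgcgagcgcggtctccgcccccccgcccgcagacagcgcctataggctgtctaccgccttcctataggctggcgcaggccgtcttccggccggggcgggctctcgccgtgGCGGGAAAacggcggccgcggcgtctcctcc
MCM10: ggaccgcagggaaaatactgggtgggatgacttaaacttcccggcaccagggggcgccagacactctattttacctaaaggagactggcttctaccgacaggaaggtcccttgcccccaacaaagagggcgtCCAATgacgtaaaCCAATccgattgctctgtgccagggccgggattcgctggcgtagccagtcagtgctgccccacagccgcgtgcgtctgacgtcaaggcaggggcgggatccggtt
PCNA: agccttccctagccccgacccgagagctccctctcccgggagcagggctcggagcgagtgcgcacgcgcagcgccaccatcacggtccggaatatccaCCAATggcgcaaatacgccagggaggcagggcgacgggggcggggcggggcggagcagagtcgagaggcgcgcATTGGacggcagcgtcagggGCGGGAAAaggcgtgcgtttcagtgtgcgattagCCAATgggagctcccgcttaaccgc
MCM6: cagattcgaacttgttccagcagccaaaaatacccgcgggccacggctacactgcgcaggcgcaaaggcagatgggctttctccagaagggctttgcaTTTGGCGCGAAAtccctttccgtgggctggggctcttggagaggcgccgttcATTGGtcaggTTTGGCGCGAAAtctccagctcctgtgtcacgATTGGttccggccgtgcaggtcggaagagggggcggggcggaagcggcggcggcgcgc
CDC6: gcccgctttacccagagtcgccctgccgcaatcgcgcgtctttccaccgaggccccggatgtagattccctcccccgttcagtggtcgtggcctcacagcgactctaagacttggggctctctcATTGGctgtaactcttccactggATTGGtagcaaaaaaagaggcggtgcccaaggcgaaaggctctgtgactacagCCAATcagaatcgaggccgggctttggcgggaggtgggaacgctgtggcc
TIPIN: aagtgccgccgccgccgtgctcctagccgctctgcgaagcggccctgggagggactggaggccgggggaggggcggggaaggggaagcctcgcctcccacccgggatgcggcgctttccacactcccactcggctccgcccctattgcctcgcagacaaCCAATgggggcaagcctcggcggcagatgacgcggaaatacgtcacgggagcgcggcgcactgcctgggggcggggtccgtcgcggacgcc

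GINS2 and PCNA carried the word TTTCCCGC, read from the opposite strand, its first printed base lying at -31 and at -59 from the start. In MCM6 the word TTTGGCGC began at -152 and again at -90, each time overlapping TTTCGCGC read from the opposite strand. MCM10 held CCAAT but no E2F word in the window. Over all windows of a gene, 15 of the 21 members (71.4%) held at least 1 E2F word, against 5.38% of the 10749 measured genes with an entry, and 14 (66.7%) held CCAAT, against 41.4%. By word, TTTCCCGC was found in 8 members (2.73% of the genes), TTTGGCGC in 6 (1.02%), TTTCGCGC in 4 (0.847%) and TTTGCCGC in 0 (1.04%). Of the CHR words of mitotic genes, TTTGAA was found in DBF4 alone (15.3% of the genes) and TTCGAA in MCM6 alone (2.18%).

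Members with and without an E2F word overlapped in their differences. The members that held a word had differences of -0.28 to 1.71 (15 genes, median 1.06), and those without had differences of 0.21 to 1.61 (6 genes, median 0.78). Both CDC6, whose TTTGGCGC starts at position 8 after its start and so outside the stretch above, and TIPIN, which has it in the window of a second listed start, held a word. A match is a description of letters and not of binding.

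The rise was present in each knockout array. Relative to each member's parental mean, the median over the 25 was 0.90 in knockout replicate 1, 0.96 in replicate 2, 1.10 in replicate 3, 0.96 in replicate 4 and 0.92 in replicate 5, beside -0.05 to 0.09 in the parental arrays. Knockout replicate 3 was the highest knockout array for 14 of the 25 members, and replicates 1 and 5 were each the lowest for 9. Over all genes the same medians lay between -0.02 and 0.01. Positions along the chromosomes were also compared, by gene order only. The 20 measured neighbours of each member had median differences of -0.18 (MCM10) to 0.14 (MCM8), beside 0.00 over all genes. Whether position has a part in the rise of any member was not tested.

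Of the measured genes outside the list that act in replication, equal numbers rose and did not rise. The 30 such genes were listed from general knowledge, with earlier results of these data known, and 22 were measured. Of the 22, 11 rose, against 15.3% of all genes, 1 fell, against 19.0%, and 10 did not pass. Their median difference was 0.16, beside 0.00 over all genes. The largest rises were TICRR, which helps to load CDC45 (1.23, adjusted p = 6.67e-07), DSCC1, a subunit of an alternative clamp loader (1.02, adjusted p = 1.04e-05), and UHRF1, which brings DNA methylation to new strands (0.97, adjusted p = 4.58e-07). The fall was PRIMPOL, a repriming primase (-0.31, adjusted p = 0.0123). The checkpoint kinase genes ATR (0.14, adjusted p = 0.0619) and CHEK1 (-0.08, adjusted p = 0.419) did not pass. The groups did not overlap for ATR, as in 12.2% of all genes, and overlapped for CHEK1. ATRIP, of the same list, rose by 0.48 (adjusted p = 0.00154).

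Most of the measured regulators and markers of the cell cycle rose. Among 10 measured E2F and RB genes there were 7 rises, against 15.3% of all genes, and 1 fall, against 19.0% (median 0.27). E2F1, an activator of S phase genes, rose by 0.63 (adjusted p = 0.000212), E2F8, a repressor of the family, by 0.51 and the pocket protein gene RBL2 by 0.48, while RB1, which restrains E2F, fell by 0.31 (adjusted p = 0.00173). Of 10 proliferation markers 9 rose, against the same 15.3%, and none fell, with a median of 0.65. They included CCNA2 (1.43), BIRC5 (1.24), TOP2A (0.91) and MKI67 (0.78), and AURKA (0.12) did not pass. In bulk RNA, more cells in S phase and more transcripts per cell cannot be told apart, and the part of either in the replication genes was not tested.

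**Figure D4:**
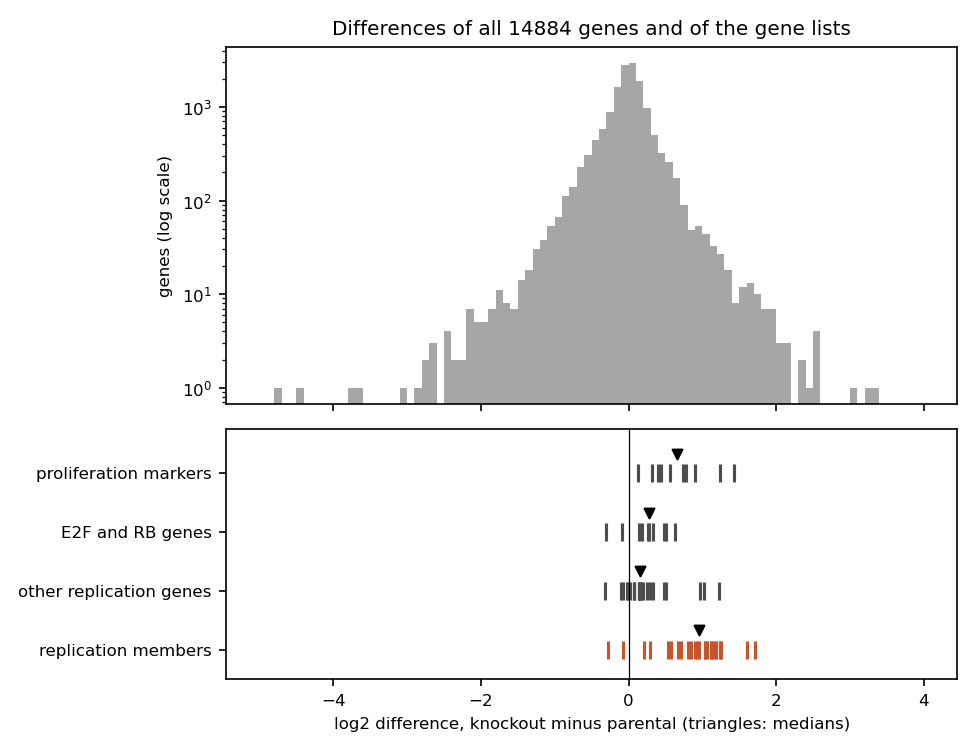
Upper panel, number of genes (log scale) in bins of 0.1 of the log2 difference, knockout minus parental, over all 14884 genes; lower panel, the same difference for each gene of 4 lists (ticks) with the list median (triangles). The 25 replication members have a median of 0.96, against 0.16 for the 22 other replication genes, 0.27 for the E2F and RB genes and 0.65 for the proliferation markers.

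Markers of other cell types were in part dim. By their mean over all arrays, 3 of 4 fibroblast, 3 of 4 endothelial, 1 of 3 immune and both adipocyte markers measured were dimmer than the median gene. FBLN1, CSF1R and CD68, which all changed, were brighter than it in both groups. KDR, which also changed, was brighter only through its knockout arrays, with a mean of 4.69 in parental and 6.38 in knockout cells. Over all genes 15.3% rose, 19.0% fell and 34.3% passed in either direction. Of 10 fibroblast markers 4 were measured, of which DCN (2.06) and FBLN1 (1.35) rose and LUM and THY1 did not pass. Their summed log2 signal ran from 18.8 to 19.7 in parental and from 22.2 to 23.0 in knockout arrays. Of 6 endothelial markers 4 were measured, and KDR (1.69) rose, with summed signals of 16.9 to 17.4 and 18.5 to 19.5. Of 6 immune markers 3 were measured, CSF1R (0.72) rose and CD14 (-0.76) and CD68 (-0.37) fell, with sums of 19.3 to 19.6 and 18.8 to 19.3. Neither measured adipocyte marker passed, with sums of 8.09 to 8.67 and 7.80 to 8.46. Of the 5 measured breast epithelial markers KRT14 (2.59), KRT5 and EGFR rose and EPCAM (-2.14) and KRT18 (-0.94) fell, with sums of 47.2 to 47.7 and 48.0 to 48.5. Array values have no true 0, and the part of these shifts in the replication genes was not tested.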

How the data were processed

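Per the labels' protocols, RNA of 5 parental and 5 H2A.X knockout MCF10A samples was labelled and hybridised to Affymetrix arrays. The authors deposited log2 signals of probe sets, normalised with Affymetrix Expression Console and Partek 6.6, per the submitters' processing notes. The log2 scale was read from the values. How probes were summarised or filtered is not given in the sources used here.

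Of 53617 probe sets 16098 had 1 gene symbol, 0 several and 37519 none named here, and all 16098 were matched to RefSeq (GRCh38.p14) by Entrez identifier. The brightest probe set over the 10 arrays represented a gene, giving 14884 genes. Knockout minus parental was fitted with limma 3.58.1 (lmFit, eBayes; R 4.3.3), two-sided, with no covariate or filter and Benjamini-Hochberg adjustment over all genes. On simulated arrays of 14884 genes with independent normal noise, 100 genes were changed by 0.5 and 100 by 1. Of these, 80% and 99% were recovered, with 14 false calls. In the data 34.3% of genes passed, so the number of false calls does not carry over to them. The number of arrays limits the precision.

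The members and lists were chosen with earlier results of these data known. Array values were printed for the 2 largest passing differences of each role group, for genes that fell and for CDC6. The 3 largest passing differences of other lists, those against their majority, MKI67, E2F1 and RB1 were named. DBF4, GINS4, TIMELESS, the partner ratios, the neighbours (10 measured genes on each side; Python 3.11.15) and other names were added after values were seen. Alternatives covered normalisation, centring, dim genes, the probe set used, the variance prior, a replicate block and each array left out.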

Additional observations from a re-analysis of the deposited data

Results flagged for a closer look

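In 1 of the 94 groups of 5 arrays examined (members, other named genes and the median over the members), an array stood far from the rest, where chance gives about 1 in 20. CDT1 was at 5.89 in parental replicate 5 and at 6.28 in the nearest parental array, a gap of 0.82 of the group's range, and without that array the CDT1 difference was 0.85 in place of 0.93 and still passed.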

How the results depend on the processing

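Results were recomputed under 16 alternatives, 10 of which left out 1 array each. The member counts kept within 1.5 times their values: 21 to 23 rose and 1 fell with an array left out, 11 to 13 rose at least 2-fold, and the median difference ran from 0.94 to 1.00. Under the other alternatives 21 or 22 rose, 1 fell and 11 or 12 rose at least 2-fold, with medians of 0.93 to 1.00. With the replicate number as a block 22 rose, 1 fell, the median was 0.96 and no member's call changed. Same-numbered arrays deviated together in pair 1 only (correlation 0.20, the other pairs -0.01 to 0.05), only pair 1 correlated best with its own number, and the numbers were not taken to pair the samples. Of the 25 members 23 kept direction and call in every alternative that tested them, GINS4 and DBF4 being the exceptions given above, and no member changed sign. Leaving out dim genes removed CLSPN and GINS4, which put the median of the helicase activators at 1.07 and that of fork protection at 0.58. Dim was set by the mean over all 10 arrays, against 5.49. GINS2 (5.08 in parental, 6.79 in knockout cells), MCM10 (5.44, 7.05) and DNA2 (5.06, 5.92) therefore stayed in through their knockout arrays. This setting favours genes that rose, so it cannot tell whether a rise rests on dim parental signal. Averaging all probe sets put fork protection at 0.62. With an array left out the median of the licensing group (CDT1, CDC6 and DTL) ran from 0.85 to 1.00. That of the helicase activators ran from 0.82 to 0.96.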
